A study of Mus musculus with 24 samples.

Results

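The 24 hippocampus libraries were ranked by their Gfap level, and the 8 Gfap-high libraries were set against the 8 Gfap-low libraries, whatever their genotype. Gfap encodes the intermediate filament protein of astrocytes. The classes were chosen by measured Gfap level (CPM, counts over the column total times 1e+06), so Gfap values are given as a description and Gfap was not tested. The other 8 libraries lay between the classes and enter only fits over wider sets, named where they are used.

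Astrogliosis is the response of astrocytes to injury, protein deposits or inflammation, in which the cells enlarge, make more Gfap and vimentin filaments and turn on secreted and acute-phase genes. Microglia, the resident macrophages of the brain, react beside them: they take up debris, release complement and cytokines, and move to a phagocytic state that depends on the surface receptor TREM2. Astrocytes also make much of the cholesterol that adult neurons use, and pass it on in particles that carry apolipoprotein E.

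All 24 libraries came from PS19 mice, which carry a human tau transgene with the P301S variant, driven by the mouse prion protein promoter. The study compared mice with R47H-TREM2 (1 human TREM2 allele with the R47H variant), mice with WT-TREM2 (1 human TREM2 allele without that variant) and mice with both mouse alleles (Trem2+/+). No library came from an animal without the tau transgene, so every value describes variation among tau-transgenic hippocampi. Titles begin with LG72 or LG73, whose meaning the labels do not give. LG72 held 5 R47H-TREM2 females, 5 R47H-TREM2 males, 3 Trem2+/+ females and 2 Trem2+/+ males, and LG73 held 6 WT-TREM2 females and 3 Trem2+/+ females. The age of the mice is not given in the labels used here. Libraries are named by allele, sex, a number in accession order within the group, and prefix. The labels do not say that each library came from a separate animal, so p-values measure the spread between libraries.

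The ranking ran from 12255 CPM of Gfap in R47H female 1 of LG72 to 443 CPM in Trem2+/+ female 2 of LG72, a 27.7-fold span. The Gfap-high libraries had 2739, 3946 and 12255 CPM (lowest, median and highest), the libraries between had 1508, 2431 and 2673 CPM, and the Gfap-low libraries had 443, 880 and 1500 CPM. The median of the Gfap-high libraries was 4.48 times that of the Gfap-low libraries. At the upper threshold, R47H male 2 was the last inside with 2739 CPM and Trem2+/+ female 3 of LG73 the first outside with 2673 CPM. At the lower threshold, R47H male 5 was the first inside with 1500 CPM and R47H female 4 the last outside with 1508 CPM. Neither threshold fell in a gap, whereas the top library stood well above the next, R47H female 5 of LG72 with 7073 CPM.

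**Figure D1:**
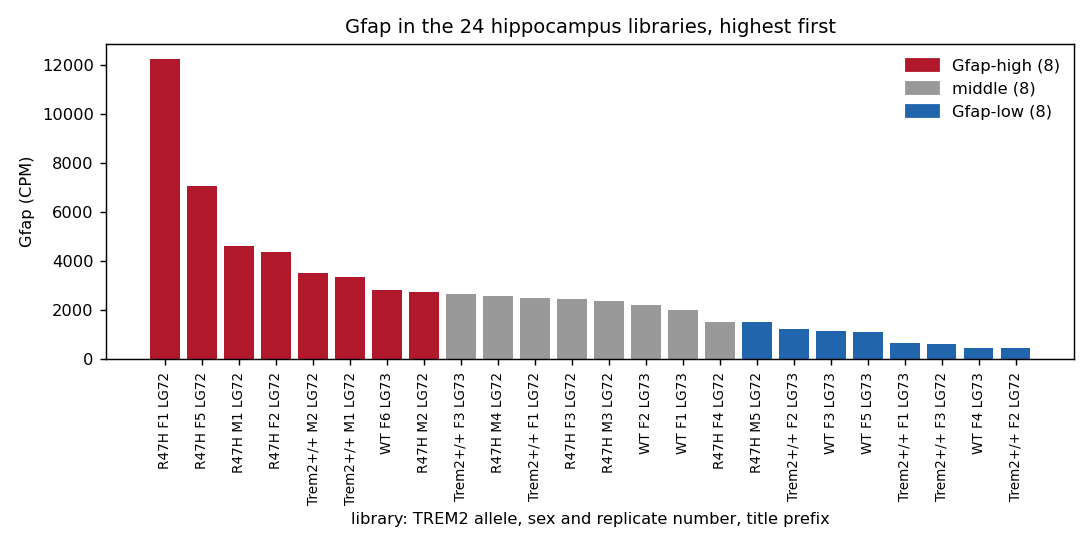
Gfap level (CPM, vertical axis from 0) in each of the 24 libraries, highest at left, colored by class. The bars fall steeply over the first 4 libraries, from 12255 to 4367 CPM, and gently through the middle of the ranking.

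The classes were not balanced over the labels. R47H-TREM2 gave 5 of its 10 libraries to the Gfap-high class and 1 to the Gfap-low class, Trem2+/+ gave 2 and 4 of 8, and WT-TREM2 gave 1 and 3 of 6. LG72 gave 7 of 15 to the Gfap-high class and 3 to the Gfap-low class, against 1 and 5 of 9 in LG73. Males gave 4 of 7 and 1, and females 4 of 17 and 7. Both classes occurred together in only R47H males of LG72 (2 Gfap-high, 1 Gfap-low) and WT-TREM2 females of LG73 (1 Gfap-high, 3 Gfap-low). Allele, sex and prefix therefore cannot be fully told apart from Gfap class.

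Total counts were 13261478 to 21275927 in Gfap-high libraries and 16283960 to 23807390 in Gfap-low libraries. Ttr, a transcript of the choroid plexus, was 55.3 to 3135 CPM in Gfap-high libraries and 21.4 to 2229 CPM in Gfap-low libraries. Alb, the plasma albumin of the liver, exceeded 30 CPM in 4 Gfap-high and 5 Gfap-low libraries. Of 6 libraries with more than 50 CPM of the pituitary hormone Prl or the olfactory protein Omp, or more than 30 CPM of the striatal receptor Adora2a, 1 was Gfap-high (R47H female 5 of LG72, Prl at 939 CPM) and 2 were Gfap-low (Trem2+/+ female 3 of LG72 and WT female 5, Adora2a at 53 and 32.3 CPM). Results are also given without these libraries.

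Which transcripts went with Gfap was asked across all genes. At an adjusted p under 0.05 in edgeR's quasi-likelihood test, 541 of 14661 genes were higher in Gfap-high libraries (3.69% of genes tested) and 58 were lower (0.396%). The median log2 fold change of all genes tested was 0.0038. In 165 genes (1.13%) all 8 Gfap-high libraries lay above all 8 Gfap-low libraries in CPM, and in 6 genes (0.0409%) all lay below. Of the called genes, 163 of 541 and 4 of 58 were separated in this way. In bulk tissue, a transcript that is higher because more cells of a type are present cannot be told apart from one that is higher because each cell makes more.

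These counts depended on which labels and libraries entered the fit. With sex and prefix as terms, 97 genes were higher and 4 lower. With the 6 labelled groups as terms, 0 genes passed in either direction in edgeR, with 271 higher and 30 lower at an unadjusted p under 0.05. Few libraries carried the comparison in that fit. Only R47H males of LG72 (2 Gfap-high, 1 Gfap-low) and WT-TREM2 females of LG73 (1 and 3) held both classes. Within LG72 (7 Gfap-high, 3 Gfap-low) and within LG73 (1 and 5) no gene passed either, with 843 and 308 genes higher and 405 and 102 lower at an unadjusted p under 0.05. Among females alone (4 and 7), 771 genes were higher and 216 lower. A fit of log2 Gfap over all 24 libraries with the labelled groups as terms called 412 genes higher and 92 lower, of which 301 and 12 were also called between the classes. Without the libraries high in Prl, Omp or Adora2a (7 Gfap-high, 6 Gfap-low), 372 genes were higher and 18 lower. Leaving out 1 library at a time gave 382 to 637 genes higher and 31 to 105 lower.

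Genes that mark reactive astrocytes were higher in Gfap-high libraries. Of 13 tested genes on a pan-reactive list, which leaves out Gfap, 10 were higher and 0 lower, and the list median was 1.77 on the log2 scale. Vim, the vimentin filament gene (chr2:13573927-13582826, plus strand, GRCm38), had 77.1, 187 and 372 CPM in Gfap-high libraries, against 23.3, 35.0 and 73.1 CPM in Gfap-low libraries (log2 fold change 2.17, SE 0.30, adjusted p = 0.00058). Serpina3n, a secreted serine protease inhibitor (chr12:104406729-104414329, plus strand), had 111, 219 and 367 CPM in Gfap-high libraries, against 21.6, 39.1 and 85.3 CPM in Gfap-low libraries. The classes did not overlap for either gene, and the libraries between had medians of 77 CPM for Vim and 91.7 CPM for Serpina3n.

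Osmr, a receptor for oncostatin M that signals through STAT3, had 12.2, 24.5 and 59 CPM in Gfap-high libraries, against 2.76, 5.01 and 8.04 CPM in Gfap-low libraries (log2 fold change 2.38, SE 0.32, adjusted p = 0.00046). S1pr3, a receptor for sphingosine phosphate, had 17.6, 29.7 and 38.4 CPM in Gfap-high libraries, against 5.71, 8.76 and 14.5 CPM in Gfap-low libraries. Timp1, an inhibitor of matrix proteases, had 2.41, 3.64 and 4.88 CPM in Gfap-high libraries, against 0, 0.482 and 1.18 CPM in Gfap-low libraries. No Gfap-low library reached the lowest Gfap-high library in these 3 genes. Cd44, a hyaluronan receptor, and Lcn2, a siderophore-binding protein, were higher with overlapping classes, at log2 fold changes of 1.31 and 3.07. Lcn2 was scarce, with medians of 1.99 CPM in Gfap-high libraries and 0.237 CPM in Gfap-low libraries, and its highest value was 11.3 CPM in Trem2+/+ male 2. Cxcl10, Steap4 and Nes did not pass, at log2 fold changes of 1.77, 1.25 and 0.63.

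The lists often called A1-type (after inflammatory stimuli) and A2-type (after ischemia) were both higher. Of 12 tested A1-type genes 8 were higher (list median 1.40 on the log2 scale), and of 11 tested A2-type genes 5 were higher, with a median of 1.07. Among A1-type genes, Ggta1, a galactosyltransferase, had 7.45, 16.5 and 29.7 CPM in Gfap-high libraries, against 3.67, 5.14 and 6.35 CPM in Gfap-low libraries, with no overlap. Serping1, the C1 inhibitor, was higher by 1.53 on the log2 scale with slight overlap. Among A2-type genes, Cd14, a co-receptor for lipopolysaccharide, was higher by 1.67 with no overlap, and Emp1, a membrane protein, by 1.39 with overlap. A difference between the lists was not tested.

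Astrocyte genes outside the reactive lists differed less. Of 22 markers, 4 were higher (Aqp4, Sox9, Kcnj10 and Mlc1) and 0 lower, with a median log2 fold change of 0.39. Aqp4, the water channel of astrocyte endfeet, had 248.7, 292 and 655 CPM in Gfap-high libraries, against 100.9, 168 and 217 CPM in Gfap-low libraries (log2 fold change 1.19, SE 0.20, adjusted p = 0.0020). Sox9, an astrocyte transcription factor, had 56.2, 72 and 121 CPM in Gfap-high libraries, against 38.1, 49.1 and 58.7 CPM in Gfap-low libraries. The classes were separate for Aqp4 and overlapped slightly for Sox9.

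Slc1a2, the main glutamate transporter, had 2360, 3094 and 4563 CPM in Gfap-high libraries, against 2051, 2281 and 3718 CPM in Gfap-low libraries, and did not pass (log2 fold change 0.33, adjusted p = 0.35). Aldh1l1, a folate enzyme widely used to mark astrocytes, did not pass either (log2 fold change 0.33, adjusted p = 0.20), nor did S100b (0.72, adjusted p = 0.22). S100b was called higher among females (1.19, adjusted p = 0.038) and with log2 Gfap over 24 libraries (0.83, adjusted p = 0.029). It also passed with labelled groups added to that fit (adjusted p = 0.042), but not with sex and prefix as terms (0.25). Between the classes all 22 markers had log2 fold changes above 0. Of 25 genes of astrocyte metabolism and transport, 5 were higher: the metallothioneins Mt1 and Mt2 (log2 fold changes 0.97 and 1.25), Apoe, Pla2g7 and Gstm1.

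**Figure D2:**
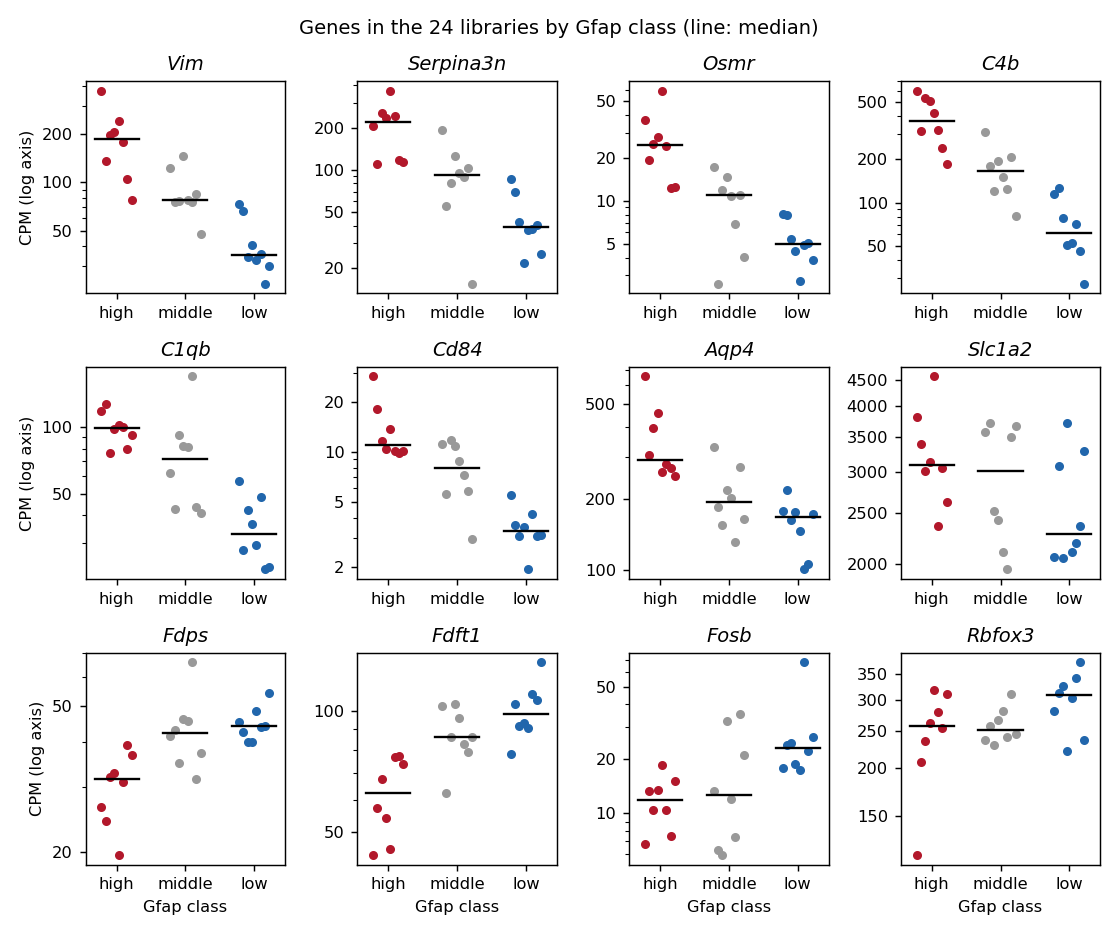
Level of 12 genes (CPM, log axes) in Gfap-high, middle and Gfap-low libraries, 8 points each, with a line at the median. Vim, Serpina3n, Osmr, C4b, C1qb, Cd84 and Aqp4 are separated between Gfap-high and Gfap-low, Slc1a2 and Rbfox3 overlap widely, and Fdps and Fdft1 run the other way.

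Microglial genes were higher in Gfap-high libraries. Of 25 tested genes that mark resting microglia, 20 were higher and 0 lower (median log2 fold change 1.01), and of 31 tested genes of the pathology-associated state 24 were higher and 0 lower (median 1.31). In 10 and 12 of these genes, the classes did not overlap. With predicted genes left out, the 10 smallest p-values among genes higher belonged to Cd180, Capg, C4b, Ccl6, Slc15a3, Cd84, Tnfrsf1a, S1pr3, C1qb and Mpeg1.

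Cd180, a toll-like receptor homolog of myeloid and B cells (chr13:102693558-102739629, plus strand), had the smallest p. It had 6.62, 9.19 and 17.1 CPM in Gfap-high libraries, against 1.44, 2.09 and 3.54 CPM in Gfap-low libraries (log2 fold change 2.09, SE 0.22, adjusted p = 0.00015). The libraries between had 0.499, 4.94 and 11.7 CPM of Cd180, with a Spearman coefficient with Gfap of 0.05 among them. Cd180 was called with log2 Gfap over 24 libraries (adjusted p = 9.0e-05), but not with labelled groups added to that fit (0.071). Mpeg1, the pore-forming protein perforin-2 of macrophages, had 89.0, 131 and 169 CPM in Gfap-high libraries, against 21.2, 35.0 and 69.8 CPM in Gfap-low libraries. Cd84, an immune cell adhesion receptor, had 9.78, 11.0 and 28.4 CPM in Gfap-high libraries, against 1.95, 3.33 and 5.50 CPM in Gfap-low libraries. All 3 were separated between the classes. Of the list of T cells, B cells and other blood leukocytes, only Lck had counts enough to be tested, at a log2 fold change of 0.06 (adjusted p = 0.96).

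Among genes of resting microglia, Aif1, which encodes the marker protein Iba1, had 15.7, 22.5 and 64.8 CPM in Gfap-high libraries, against 6.76, 10.4 and 14.3 CPM in Gfap-low libraries. The classes did not overlap for Aif1. The largest fold changes on the list were those of Ly86 (1.82), which pairs with Cd180, and of the Fc receptor gamma chain Fcer1g (1.63), and smaller ones were those of Tmem119 (0.58) and the fractalkine receptor Cx3cr1 (0.86). P2ry12 and P2ry13, purinergic receptors of resting microglia, did not pass, at log2 fold changes of 0.65 and 0.59 (adjusted p = 0.060 and 0.084).

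Among genes of the pathology-associated state, Clec7a, a receptor for beta-glucans, had 18.1, 29.3 and 173 CPM in Gfap-high libraries, against 0, 3.49 and 10.8 CPM in Gfap-low libraries (log2 fold change 3.82, SE 0.67, adjusted p = 0.0026). Cst7, an inhibitor of cathepsins, had 2.73, 5.62 and 10.9 CPM in Gfap-high libraries, against 0, 0.534 and 2.68 CPM in Gfap-low libraries. Itgax, an integrin subunit, and Lyz2, lysozyme, were also separated between the classes, at log2 fold changes of 2.25 and 3.10. Igf1, Lpl and Ch25h of the same list did not pass, at log2 fold changes of 0.15, 0.08 and 0.57.

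Trem2 itself had 12.9, 17.8 and 29.9 CPM in Gfap-high libraries, against 2.77, 9.04 and 17.0 CPM in Gfap-low libraries (log2 fold change 1.12, SE 0.28, adjusted p = 0.025), with overlap. How reads of the human TREM2 allele were counted is not stated in the labels. Its signaling partner Tyrobp was higher by 1.56 on the log2 scale. Of 32 genes of the PI3K, AKT and mTOR pathway, 2 were higher and 1 lower, beside 3.69% and 0.396% of all genes. The leukocyte kinase subunit Pik3cg and the lipid phosphatase Inpp5d were higher (log2 fold changes 0.93 and 0.83) and the inhibitor Tsc1 lower (-0.44). Pik3cg and Inpp5d passed with log2 Gfap over 24 libraries (adjusted p = 0.00013 and 0.00012), but not with sex and prefix as terms (0.12 and 0.15). Among females Pik3cg passed (adjusted p = 0.013) and Inpp5d did not (0.052). The list median was -0.04.

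Complement genes were higher in Gfap-high libraries at 11 of 20 tested, with 0 lower and 9 separated between the classes. C4b, which encodes complement component 4 (chr17:34728380-34743882, minus strand), had 185, 369 and 602 CPM in Gfap-high libraries, against 27.3, 61.8 and 125.6 CPM in Gfap-low libraries (log2 fold change 2.46, SE 0.30, adjusted p = 0.00037). C1qb, a chain of the first complement component, had 76.6, 99.0 and 127.3 CPM in Gfap-high libraries, against 22.8, 33.0 and 57.1 CPM in Gfap-low libraries, and its partners C1qa and C1qc were higher by 1.39 and 1.41. C3 and its receptor C3ar1 were separated between the classes, at log2 fold changes of 1.62 and 1.94. Cfb, C2 and C1ra did not pass, at 0.15, 0.09 and 0.06.

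Promoters of 3 microglial genes are shown because the genes moved together and because GAGGAA, the core of the sites bound by the myeloid factor PU.1, was searched in them on both strands. They were chosen among genes whose windows held a match. Windows of Ly86, Fcer1g, Irf8, C3 and C3ar1, which were also higher, held none. Each line gives the 250 bases upstream of the RefSeq start on GRCm38.p6, 5′ to 3′ on the gene's strand, with matches to GAGGAA or its reverse complement in capitals. C1qb lies on the minus strand at chr4:136886201-136886450, Laptm5, a lysosomal protein of leukocytes, on the plus strand at chr4:130913066-130913315, and Itgam, an integrin subunit of myeloid cells, on the plus strand at chr7:128062390-128062639.
C1qb: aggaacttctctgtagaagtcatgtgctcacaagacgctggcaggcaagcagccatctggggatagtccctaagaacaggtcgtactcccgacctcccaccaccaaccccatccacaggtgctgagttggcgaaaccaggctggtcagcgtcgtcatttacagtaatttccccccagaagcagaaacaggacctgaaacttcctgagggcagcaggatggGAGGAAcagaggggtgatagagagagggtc
Laptm5: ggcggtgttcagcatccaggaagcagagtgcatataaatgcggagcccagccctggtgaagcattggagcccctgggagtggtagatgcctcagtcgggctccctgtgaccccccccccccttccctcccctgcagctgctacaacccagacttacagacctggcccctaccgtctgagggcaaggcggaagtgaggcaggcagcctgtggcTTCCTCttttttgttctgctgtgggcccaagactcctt
Itgam: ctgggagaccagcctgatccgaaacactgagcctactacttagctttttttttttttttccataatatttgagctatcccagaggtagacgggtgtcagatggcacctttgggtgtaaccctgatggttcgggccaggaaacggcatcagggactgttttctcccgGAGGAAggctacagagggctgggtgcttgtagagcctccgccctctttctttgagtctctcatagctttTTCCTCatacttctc
Each held 1 match except Itgam with 2. The motif stood in the upstream windows of 38.2% of the 422 genes called higher that had a RefSeq entry, of 53.3% of the 15 called resting microglia genes and 38.1% of the 21 called pathology-associated microglial genes with one, and of 25.8% of all 10997 tested genes with one. Of the 10 called pan-reactive astrocyte genes, 6 held it as well. Windows of 250 bases were the same length in all sets, and genes with several starts counted once if any window matched. A STAT-type motif, TTCNNNGAA, was in 8.77% of the genes called higher and 7.21% of all, and in 0 of the 10 called pan-reactive astrocyte genes. These matches describe the letters only. Laptm5 had 79.1, 109 and 143 CPM in Gfap-high libraries, against 30.5, 45.4 and 73.9 CPM in Gfap-low libraries, and Itgam had 29.8, 34.3 and 45.6 CPM, against 14.8, 18.9 and 28.2 CPM in Gfap-low libraries.

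Antigen presentation and interferon genes were higher in part. Of 22 tested antigen presentation genes 11 were higher and 0 lower (median log2 fold change 1.22). H2-K1, a class I heavy chain, had 54.6, 80.6 and 106.5 CPM in Gfap-high libraries, against 19.4, 33.4 and 51.3 CPM in Gfap-low libraries, and its light chain B2m was higher by 1.40. Of 32 tested interferon-stimulated genes 9 were higher and 0 lower, although 31 had log2 fold changes above 0 (median 1.19). Ifitm3, an antiviral membrane protein, and Irgm1, an immunity-related GTPase, passed at 1.60 and 1.06, whereas Ifit1, Isg15 and Irf7 did not, at 1.49, 1.63 and 1.42. Without the libraries high in Prl, Omp or Adora2a, 6 antigen presentation and 2 interferon genes were called.

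The interferon genes spread within the Gfap-high class. Their mean log2 CPM, relative to the mean of the 24 libraries, was 1.298 in R47H female 5 and 1.10 in R47H female 1. It was -0.59 in Trem2+/+ male 2, -0.08 in R47H male 1 and 0.15 in Trem2+/+ male 1. These lower values lay inside the Gfap-low range of -1.58 to 0.37. By the same measure, the pathology-associated microglial genes were 0.49 to 1.23 in Gfap-high libraries and -1.81 to -0.07 in Gfap-low libraries, without overlap. The pan-reactive astrocyte genes were 0.23 to 1.48 in Gfap-high libraries and -1.502 to -0.15 in Gfap-low libraries, also without overlap. The lowest microglial and astrocyte scores in the series both lay in WT female 4, which had 459 CPM of Gfap.

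**Figure D3:**
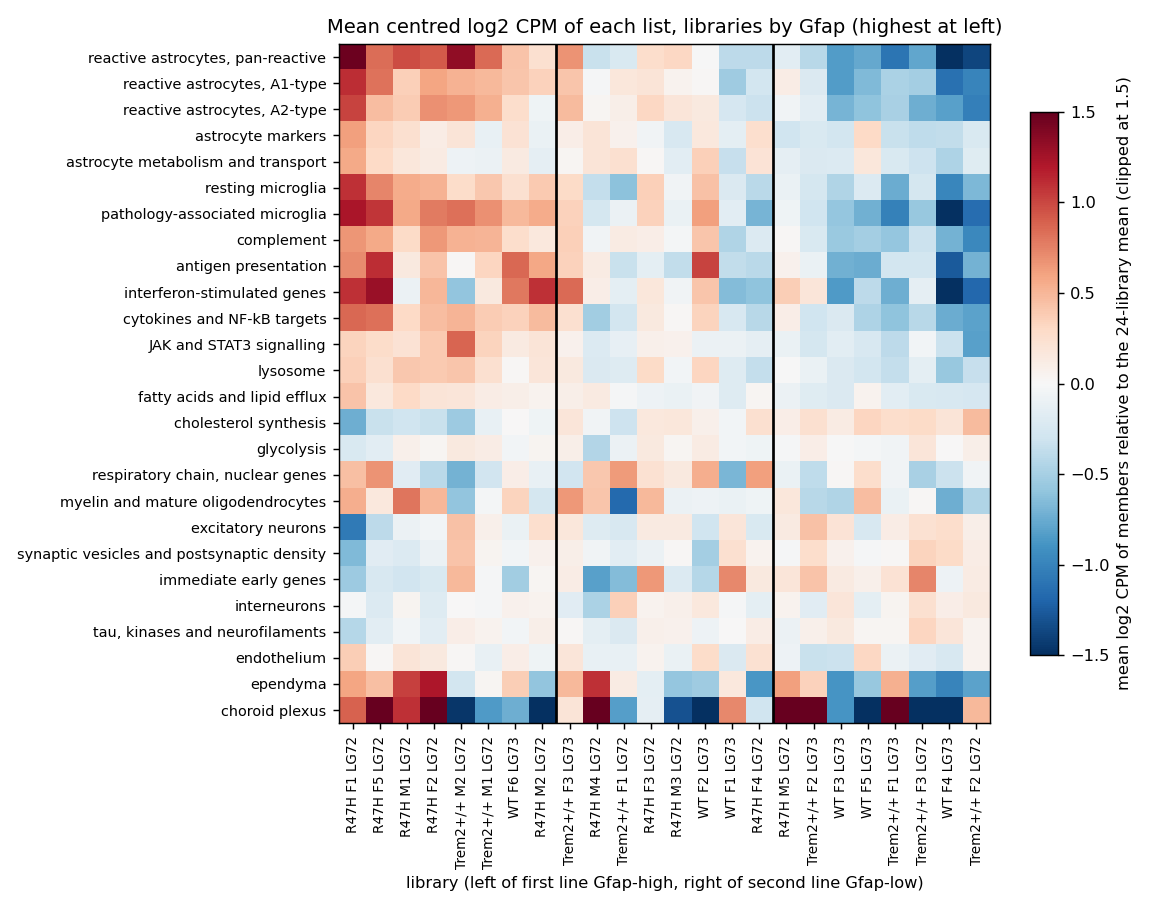
Mean log2 CPM of each list's genes relative to their 24-library mean (color, clipped at 1.5) in the 24 libraries, highest Gfap at left, with lines at the class borders. Reactive astrocyte and microglial lists run from red to blue, cholesterol synthesis from blue to red, and choroid plexus varies without order, from -1.90 to 2.65 in Gfap-high and from -2.33 to 2.22 in Gfap-low libraries.

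Of 24 tested cytokines and NF-kB targets, 13 were higher and 0 lower (median log2 fold change 0.82). Tnfrsf1a, the main tumor necrosis factor receptor, had 17.5, 22.1 and 27.1 CPM in Gfap-high libraries, against 6.82, 10.1 and 14.6 CPM in Gfap-low libraries, and Tlr2, a receptor for bacterial lipoproteins, was higher by 2.21. Both were separated between the classes. Of 20 genes of JAK and STAT3 signaling, 8 were higher and 0 lower. Stat3 had 43.4, 59.8 and 78.0 CPM in Gfap-high libraries, against 34.2, 40.0 and 48.6 CPM in Gfap-low libraries (log2 fold change 0.56, adjusted p = 0.019). It also passed without the libraries high in Prl, Omp or Adora2a (adjusted p = 0.023). Stat3 did not pass among females (adjusted p = 0.13), with sex and prefix as terms (0.22) or with log2 Gfap over 24 libraries (0.054). Between the classes Jak1 and Jak2 did not pass, at 0.00 and 0.13, and the feedback inhibitor Socs3 passed at 1.56.

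Lysosomal genes were higher at 16 of 31 tested, with 0 lower and a median log2 fold change of 0.54. Ctss, the cathepsin S of microglia, had 91.8, 115 and 187 CPM in Gfap-high libraries, against 23.4, 48.9 and 83.3 CPM in Gfap-low libraries. Ctsd, cathepsin D, had 658, 889 and 1181 CPM in Gfap-high libraries, against 285, 443 and 699 CPM in Gfap-low libraries, with overlap. Subunits of the proton pump Atp6v0d1 and Atp6v1a and the saposin precursor Psap did not pass, at -0.12, -0.15 and -0.04.

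Genes of cholesterol synthesis were lower in Gfap-high libraries and gave 5 of the 10 smallest p-values in that direction, with predicted genes left out. Of 22 tested, 10 were lower and 0 higher. The list median was -0.58 on the log2 scale, and 21 of 22 were below 0. Fdft1, squalene synthase, had 43.7, 62.5 and 77.1 CPM in Gfap-high libraries, against 78.2, 98.5 and 132.3 CPM in Gfap-low libraries (log2 fold change -0.70, SE 0.14, adjusted p = 0.0047). Fdps, farnesyl diphosphate synthase, had 19.6, 31.6 and 39.1 CPM in Gfap-high libraries, against 39.8, 44.0 and 54.3 CPM in Gfap-low libraries. All 8 Gfap-high libraries lay below all 8 Gfap-low libraries in both genes.

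Hmgcs1, a synthase early in the pathway, had 140, 192 and 252 CPM in Gfap-high libraries, against 247, 307 and 412 CPM in Gfap-low libraries, so that only the edges of the classes met. Cyp51, a sterol demethylase, was lower by the log2 fold change of -0.60. Sqle, Mvd, Msmo1 and the SREBP regulator Insig1 passed as well, at -0.67, -0.81, -0.62 and -0.62. The transcription factor Srebf2 did not pass, at -0.42. Within LG72 the list median was -0.69 and within LG73 it was -0.27, with 0 genes passing in either.

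The upstream 250 bases of Hmgcs1 are shown because they held a match to TCACNCCAC, a form of the sterol regulatory element that SREBP proteins bind, searched on both strands. The window lies on the plus strand of GRCm38.p6 at chr13:119690101-119690350, from RefSeq, with the match in capitals.
Hmgcs1: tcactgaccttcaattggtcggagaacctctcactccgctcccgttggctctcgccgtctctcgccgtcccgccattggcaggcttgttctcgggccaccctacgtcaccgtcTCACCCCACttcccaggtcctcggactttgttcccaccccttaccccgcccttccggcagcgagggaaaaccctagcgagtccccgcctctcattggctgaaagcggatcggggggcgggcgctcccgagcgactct
It was the only one of the 5 called cholesterol genes with a RefSeq entry to hold the motif, which stood in 1.24% of the windows of all tested genes.

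Of 27 tested genes of fatty acids and lipid efflux, 4 were higher and 0 lower, with a list median of 0.34. Abca1, a cholesterol exporter, had 35.8, 58.6 and 141 CPM in Gfap-high libraries, against 21.6, 24.2 and 31.1 CPM in Gfap-low libraries (log2 fold change 1.502, SE 0.25, adjusted p = 0.0020), with no overlap. Apoe had 2480, 3470 and 3810 CPM in Gfap-high libraries, against 1539, 2189 and 3167 CPM in Gfap-low libraries, with overlap. Apod and Npc2 were the others higher, and the other 23 genes did not pass, among them Abcg1 at 0.01. Of 27 glycolysis genes 1 was higher, hexokinase Hk2 at 0.77, beside 3.69% of all genes, and the list median was -0.08. Hk2 did not pass without the libraries high in Prl, Omp or Adora2a (adjusted p = 0.053). It did not pass among females (adjusted p = 0.067) or with sex and prefix as terms (0.095) either. No gene passed among 47 nuclear genes of the respiratory chain (median 0.21) or 51 ribosomal protein genes (median 0.40). Without R47H female 5 of LG72 these medians were 0.02 and 0.14. With the slope of expression on transcript length as a covariate they were -0.08 and -0.01, with 1 ribosomal protein gene higher.

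**Figure D4:**
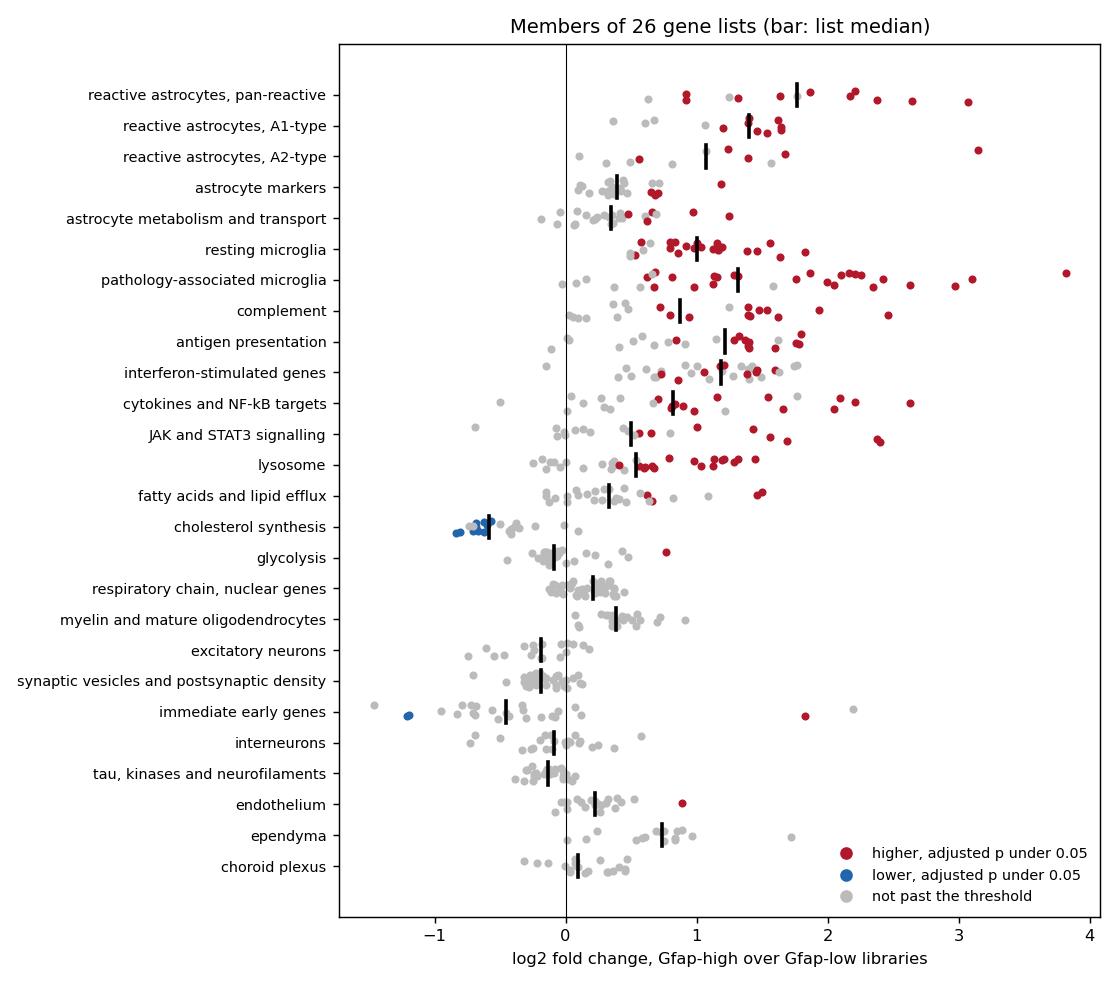
Log2 fold change of each tested member of 26 gene lists (points, Gfap-high over Gfap-low), colored by call, with a bar at the list median. Called genes cluster to the right in the reactive astrocyte, microglial, complement and lysosomal lists and to the left in cholesterol synthesis, where 10 of 22 passed.

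Few neuronal genes passed between the classes, and the neuronal lists depended on the setting. No gene passed among 18 excitatory neuron genes (median log2 fold change -0.18), 23 interneuron genes (-0.09), 34 synaptic genes (-0.19) or 28 genes of tau, its kinases and neurofilaments (-0.13), although 28 of the 34 synaptic genes lay below 0. With 0.396% of all genes called lower, a count of 0 says little about lists of this size. Among females alone, the medians were -0.46 for excitatory neuron genes, with 17 of 18 below 0, and -0.40 for synaptic genes, with 31 of 34 below 0 and 1 called lower. Of all 15023 genes tested in females, 216 were called lower. With log2 Gfap over 24 libraries, 3 excitatory neuron, 8 synaptic and 4 tau, kinase and neurofilament genes were called lower. That fit called 749 of all 15591 genes tested lower, a larger share than between the classes. Rbfox3, the nuclear marker NeuN, had 118, 257 and 318 CPM in Gfap-high libraries, against 221, 309 and 377 CPM in Gfap-low libraries, and did not pass between the classes (log2 fold change -0.27, adjusted p = 0.47). It was called lower with log2 Gfap over 24 libraries (-0.41, adjusted p = 0.029), but not among females (-0.56, adjusted p = 0.11) or with labelled groups added to the 24-library fit (-0.53, adjusted p = 0.059). Its lowest value lay in R47H female 1, where excitatory neuron genes also had the lowest mean log2 CPM, -1.07. Mapt, the mouse tau gene, had 482, 584 and 715 CPM in Gfap-high libraries, against 542, 602 and 992 CPM in Gfap-low libraries (adjusted p = 0.63). How reads of the human tau transgene were counted is not stated in the labels.

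A few neuronal genes did pass. Fosb, an activity-induced transcription factor, had 6.79, 11.8 and 18.4 CPM in Gfap-high libraries, against 17.4, 22.9 and 68.3 CPM in Gfap-low libraries (log2 fold change -1.19, SE 0.29, adjusted p = 0.021). Egr4 of the same class was lower by the log2 fold change of -1.21, and Atf3, an injury-induced factor, was higher by 1.83. Of 25 immediate early genes 21 lay below 0 (median -0.45). Among females alone the median was -0.81 with 8 called lower, beside 216 of all 15023 genes tested there. Between the classes Egr1, Arc and Npas4 did not pass, at -0.95, -0.83 and -0.79. Nov, a secreted matricellular protein on the CA1 list, had 43.1, 87.4 and 135 CPM in Gfap-high libraries, against 94.3, 172 and 284 CPM in Gfap-low libraries. Calb1 and C1ql3 of the dentate list were lower by log2 fold changes of -0.58 each, and 16 of 18 dentate genes did not pass. Without the libraries high in Prl, Omp or Adora2a, Calb1 and C1ql3 did not pass (adjusted p = 0.085 and 0.079). Fosb and Nov still passed there (adjusted p = 0.045 for each). With sex and prefix as terms Fosb passed (adjusted p = 0.039), whereas Nov, Calb1 and C1ql3 did not (0.11, 0.067 and 0.17).

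The other genes with the smallest p among those lower were Mal2, a membrane traffic protein (-0.62), the imprinted gene Zdbf2 (-0.61), the muscarinic receptor Chrm4 (-1.07) and the palmitoyltransferase Zdhhc22 (-1.45), all with overlapping classes. Without the libraries high in Prl, Omp or Adora2a, Mal2 passed (adjusted p = 0.024). Zdbf2, Chrm4 and Zdhhc22 did not pass there (adjusted p = 0.069, 0.0505 and 0.069). Chrm4 is also expressed by striatal neurons, and Adora2a of the striatal list passed at -2.84, with 0.688, 1.84 and 3.10 CPM in Gfap-high libraries, against 1.65, 3.15 and 53 CPM in Gfap-low libraries. Of 19 striatal genes, all had log2 fold changes below 0. Both Gfap-low libraries high in Adora2a were left out in the fit without libraries high in Prl, Omp or Adora2a, where 0 striatal genes passed and the list median was -0.15, against -0.49 with them.

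Of other cells, no myelin gene passed between the classes (22 tested, median log2 fold change 0.39), and all 22 lay above 0. Mbp, a myelin protein, had 1472, 3329 and 10647 CPM in Gfap-high libraries, against 1209, 2058 and 6653 CPM in Gfap-low libraries (adjusted p = 0.35). Mbp was called higher with log2 Gfap over 24 libraries (0.87, adjusted p = 0.045). It did not pass with labelled groups added to that fit (adjusted p = 0.36) or among females (0.070). Ependymal genes had a median of 0.74 with 0 of 16 passing, and choroid plexus genes a median of 0.10 with 0 of 21 passing. Of the vascular and meningeal lists, 1 of 21 endothelial genes (Ly6a, 0.89), 1 of 16 pericyte genes (Notch3, 0.55) and 2 of 21 meningeal fibroblast genes (Bgn, 1.14, and Serpinf1, 0.84) were higher, beside 3.69% of all genes. None of these 4 passed without the libraries high in Prl, Omp or Adora2a (adjusted p = 0.10, 0.12, 0.17 and 0.15) or with sex and prefix as terms. All 4 were called with log2 Gfap over 24 libraries (Ly6a 0.041, Notch3 0.019, Bgn 0.00053 and Serpinf1 0.0033), beside 1369 of 15591 genes called higher there. With labelled groups added to that fit only Bgn of the 4 passed (adjusted p = 0.010). Among females Ly6a and Bgn passed (adjusted p = 0.036 and 0.015), whereas Notch3 and Serpinf1 did not. Of 29 matrix genes 4 were higher, among them Timp1 and Thbs4, a thrombospondin (1.66). The part of these cells in the other results was not tested.

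Of the tested genes, the 10 most like Gfap in rank over the 24 libraries were C4b, Cnn3, Clec7a, Slc15a3, Vim, Arpc1b, Tlr2, Parp3, Tnfrsf1a and Lair1. Their Spearman coefficients were 0.946, 0.937, 0.931, 0.931, 0.929, 0.909, 0.904, 0.903, 0.902 and 0.901. These points include both classes and share library composition and depth. Over the 8 libraries between the classes alone, the coefficients were lower, at 0.38 for C4b, 0.57 for Cnn3, 0.57 for Vim and 0.21 for Lair1. Cnn3, an actin-binding calponin, had 131.7, 166 and 287 CPM in Gfap-high libraries, against 67.0, 94.4 and 118 CPM in Gfap-low libraries.

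Within labels the medians of 4 lists, of reactive astrocytes, microglia, complement and cholesterol synthesis, kept their direction, with smaller values in some fits. The pan-reactive astrocyte list had median log2 fold changes of 1.67 within LG72, 1.21 within LG73 and 2.04 among females, with 0, 0 and 10 of 13 genes called. The pathology-associated microglial list had 1.32, 1.24 and 1.75, with 0, 0 and 23 called. The complement list had 0.82, 0.65 and 1.12, with 0, 0 and 11 called, and cholesterol synthesis had -0.69, -0.27 and -0.58, with 0, 0 and 8 called. With the labelled groups as terms, the medians were 1.22 for pan-reactive astrocytes, 0.84 for pathology-associated microglia, 0.55 for complement and -0.25 for cholesterol synthesis, with 0 genes called. With sex and prefix as terms, 4 pan-reactive, 11 pathology-associated microglial, 6 complement and 1 cholesterol gene were called. Vim, Serpina3n, Osmr, C4b, C1qb and Aqp4 were among those higher. Of the 64 genes that the naming rule took and the comparison called, 29 were also called in that fit. Those that did not pass there included Trem2 (adjusted p = 0.19), Cst7 (0.13), Lcn2 (0.22), Apoe (0.067), Abca1 (0.067), Fdft1 (0.058) and Fdps (0.073).

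**Figure D5:**
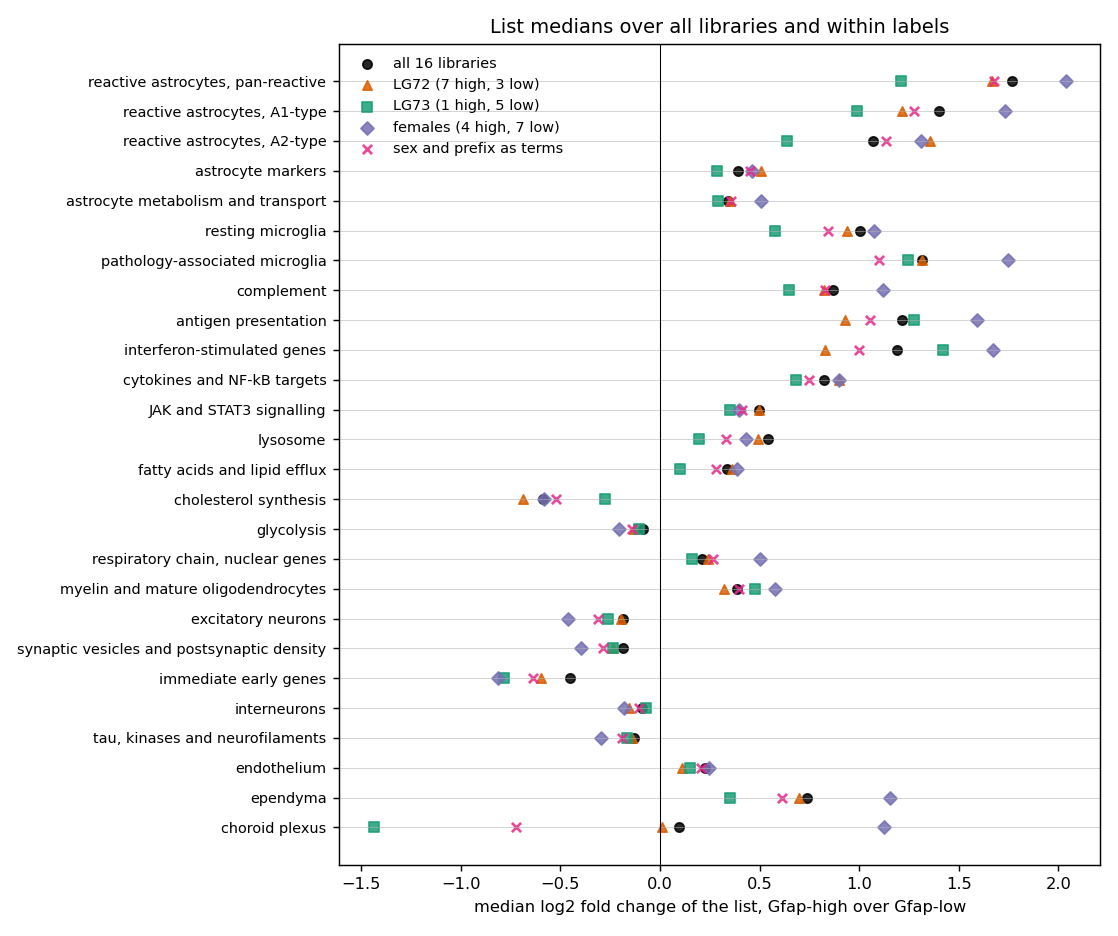
Median log2 fold change (Gfap-high over Gfap-low) of 26 gene lists over all 16 libraries, within LG72, within LG73, among females, and with sex and prefix as terms. Reactive astrocyte, microglial and cholesterol lists lie on one side of 0 under all 5, whereas choroid plexus ranges to both sides.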

How the data were processed

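Bulk RNA-seq of hippocampus was deposited by the authors as a table of raw read counts per gene. The build was GRCm38 per the submitters' processing notes, with aligner, counter and strand use not given in the sources used here. In it 24 columns matched a sample title. The 6 other columns, and 12 of an in vitro table, matched none, and these 18 were not used. Gene coordinates are from GENCODE M21, promoters from RefSeq.

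CPM values are counts over the column total. Gfap-high and Gfap-low libraries (8 each) were compared with edgeR 4.0.16 in R 4.3.3 (filterByExpr, TMM factors, quasi-likelihood F-test), with Benjamini-Hochberg adjustment over 14661 genes without Gfap and a threshold of 0.05. SE is the log2 fold change over the square root of F. The scripts were tested on simulated data. List scores are means of gene-centered log2 CPM (prior count 2). P-values describe how a gene goes with Gfap class among these libraries, not the effect of a treatment. The members and gene lists were chosen with earlier results of these data known. The naming rule took the 10 genes of smallest p in each direction, up to 2 called genes of smallest p per list and 16 fixed glial and neuronal genes. Predicted genes, clone names and symbols turned into dates were left out before the 10 in each direction were taken. The 10 genes most like Gfap in rank were given as a description, outside this rule. Other genes were named as examples of their lists after their values were seen. Alternatives were other scalings, DESeq2 1.42.0, limma 3.58.1 (voom), no filter, label and composition terms, subsets, other class sizes and leaving out each library. Fits of log2 Gfap with labelled groups and with sex and prefix as terms were chosen after seeing the data. Values of some single genes are not reported here, and counts over lists include them.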

Additional observations from a re-analysis of the deposited data

Results flagged for a closer look

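In 14 of 222 sets of 8 libraries, 1 library lay far from the other 7 of its class (Dixon's criterion, 0.526), which chance gives in about 1 of 20 sets. Trem2+/+ male 2 gave 5 of them among Gfap-high libraries. Its log2 CPM was 4.56 for Tlr2 (others 2.77 to 3.58) and 3.63 for Lcn2 (others -0.49 to 1.40). Its list scores were 0.871 for JAK and STAT3 signaling (others 0.13 to 0.40), 1.57 for glucocorticoid-induced genes (others -0.16 to 0.28) and 0.407 for the PI3K, AKT and mTOR list (others -0.12 to 0.06). Also Gfap-high, WT female 6 had 3.23 log2 CPM of Hk2 (others 3.70 to 4.0), R47H female 1 of LG72 had 6.87 of Rbfox3 (others 7.75 to 8.44), and R47H female 2 had a cortex score of -0.72 (others -0.15 to 0.15).

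Among Gfap-low libraries, Trem2+/+ female 3 of LG72, which had 53 CPM of Adora2a, had log2 CPM of 6.21 for Chrm4 (others 4.59 to 5.36) and 6.12 for Fosb (others 4.10 to 4.71). WT female 5 had 7.69 log2 CPM of S100b (others 6.11 to 6.84) and an astrocyte marker score of 0.301 (others -0.38 to -0.23). WT female 4 had 9.96 log2 CPM of Mapt (others 9.04 to 9.37). Trem2+/+ female 2 of LG72 had a JAK and STAT3 score of -0.811 (others -0.39 to -0.05).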

How the results depend on the processing

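Among settings that left out no single library, the count of genes higher stayed within 1.5 times of 541 under other scalings, voom, DESeq2 (800), no filter, the Alb and length terms, females only, the 6 libraries at each end, the TMM ranking and the fit without libraries high in Prl, Omp or Adora2a. It was 1369 with log2 Gfap over 24 libraries, 301 with 12 libraries a class and 97 with sex and prefix as terms. The count lower, 58, was 171 at an adjusted p under 0.1, 187 with DESeq2, 216 in females, 18 without libraries high in Prl, Omp or Adora2a, 749 with log2 Gfap over 24 libraries, 92 when labelled groups were added, 134 with 6 libraries a class, 167 with the TMM ranking and 4 with sex and prefix as terms. Both counts were 0 with labelled groups as terms, within LG72 and within LG73. Without 1 library each, 382 to 637 genes were higher and 31 to 105 lower. The count lower was 31 without Trem2+/+ female 2 of LG72, 35 without R47H female 2, Trem2+/+ female 3 of LG72 or R47H male 1, 88 without Trem2+/+ male 2, 103 without R47H male 2 and 105 without R47H male 5. Adora2a reversed to 0.17 with log2 Gfap over 24 libraries and labelled groups (adjusted p = 0.95). The causes were not tested. No paired analysis was possible because the replicate numbers were given in accession order and the classes cut across the labelled groups.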
